A study of Mus musculus with 2 samples.

Results

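The cells described here are alpha-defensin cells in which Defa24 was at least as high as Defa22. A cell was a member where the levels of all genes named Defa plus digits summed to at least 200 per 10000 UMIs (the molecular barcodes by which captured transcripts are counted) and where Defa24 was not below Defa22. They were thus chosen by measured levels of these genes. By this rule 109 of 2209 cells were members, 97 of 1241 in the DBZ library and 12 of 968 in the DMSO library. The study profiled single cells of Apc-mutant mouse intestinal organoids on a droplet platform, with 1 library for organoids given DBZ and 1 for organoids given DMSO. Both came from C57Bl mice of 3 to 4 months. DBZ is a gamma-secretase inhibitor that blocks the release of active Notch, and DMSO is its vehicle. A protocol text common to both samples gives 300 nM 4-OH-tam and 10 uM DBZ; the treatment was taken from the sample titles. Each library stands alone, cells of a library are not replicates, and no p-value was made. Every comparison below is between groups of cells in these 2 libraries, and intervals cover counting error only. Members are set against cells with the same defensin sum but more Defa22 than Defa24, called Defa22-dominated cells (108 in DBZ, 16 in DMSO), and against the remaining cells (1036 and 940), called other cells.

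Alpha-defensins are small cationic peptides rich in disulfide bonds. In the mouse small intestine they are made by Paneth cells, secretory cells of the crypt base that store them in granules beside other antimicrobial proteins. They are made as inactive precursors, and the protease Mmp7 cuts them to their active form. Their genes lie in a cluster of tandem copies on chromosome 8, and many copies are nearly identical. Paneth and goblet cells share the transcription factor Atoh1, which Notch signalling holds down.

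The last exon of an alpha-defensin gene encodes most of the mature peptide, and this stretch shows how near the genes are to Defa24. The stretches below are in GRCm38, from GENCODE M21, on the plus strand, and end with the stop codon. Capitals mark bases that differ from Defa24 after global alignment. Defa24 lies at chr8:21735268-21735377, Gm15284 at chr8:21135394-21135503, Defa17 at chr8:21656532-21656641, Defa22 at chr8:21163046-21163155 and Defa20 at chr8:21510028-21510143.
Defa24: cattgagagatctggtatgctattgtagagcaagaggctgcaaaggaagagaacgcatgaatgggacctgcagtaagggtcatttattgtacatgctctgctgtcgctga
Gm15284: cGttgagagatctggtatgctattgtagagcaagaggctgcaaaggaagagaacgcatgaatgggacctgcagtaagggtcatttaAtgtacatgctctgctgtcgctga
Defa17: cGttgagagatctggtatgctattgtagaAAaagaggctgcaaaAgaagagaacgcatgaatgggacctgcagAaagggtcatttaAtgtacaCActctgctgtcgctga
Defa22: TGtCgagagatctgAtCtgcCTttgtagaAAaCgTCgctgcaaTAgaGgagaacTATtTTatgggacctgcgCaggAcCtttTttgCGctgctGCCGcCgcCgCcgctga
Defa20: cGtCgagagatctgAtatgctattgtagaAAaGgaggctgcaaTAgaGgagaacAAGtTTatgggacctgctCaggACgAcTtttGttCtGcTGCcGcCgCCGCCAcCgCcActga
Gm15284 differed from Defa24 at 2 bases of this stretch and Defa17 at 8. Defa22 differed at 33 bases and Defa20 at 36. The stretch of Defa3 was identical to that of Defa17, and Defa21 differed from Defa24 at 34 bases. Over the whole coding sequence, Defa24 was 98.6% identical to Gm15284 and 95.7% to Defa17 and Defa3. Its identity was 82.4% to Defa20 and 81.5% to Defa22. Defa22 and Defa21 were 99.3% identical to each other, and the coding sequences of Defa20 and Gm15308 were the same.

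Of the alpha-defensin genes in the table, 12 had a promoter entry in RefSeq (GRCm38.p6), and Defa24, Defa17 and Defa3 were not among them. They were searched for ATCAAAG, a core letter string of TCF/LEF binding, and its reverse complement CTTTGAT on either strand, in the 250 bases before the gene's start. These are the bases before Defa23, a gene of high coding identity to Defa24, at chr8:21054790-21055039, and before Defa22, at chr8:21162027-21162276, with the string in capitals.
Defa23: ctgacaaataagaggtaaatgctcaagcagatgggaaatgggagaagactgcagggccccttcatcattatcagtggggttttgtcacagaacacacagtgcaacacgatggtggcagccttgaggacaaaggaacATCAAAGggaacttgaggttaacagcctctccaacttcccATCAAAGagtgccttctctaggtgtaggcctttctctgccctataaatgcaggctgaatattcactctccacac
Defa22: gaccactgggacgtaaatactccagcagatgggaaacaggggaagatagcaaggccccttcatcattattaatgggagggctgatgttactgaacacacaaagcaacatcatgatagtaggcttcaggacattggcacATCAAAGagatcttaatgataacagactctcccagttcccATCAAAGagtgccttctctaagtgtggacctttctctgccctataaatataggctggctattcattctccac
Both held the string at 2 places, 114 and 74 bases before the start of Defa23 and 112 and 72 before that of Defa22. It was found in 10 of the 12 entries (83.3%) and in 1053 of 32851 promoter entries of all genes (3.21%). A match describes letters only.

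Members made up 7.82% of DBZ cells (exact Clopper-Pearson 95% interval 6.38 to 9.45) and 1.24% of DMSO cells (0.642 to 2.16). After every cell was thinned to the same depth the shares were 7.90% and 1.24%. Among cells of either defensin class, members were 47.3% in DBZ (40.3 to 54.4) and 42.9% in DMSO (24.5 to 62.8). The DMSO interval contains the DBZ interval. The members' median depth was 13237 UMIs in DBZ, against 9696 in Defa22-dominated cells and 10736 in other cells. In DMSO the medians were 18766.5, 11121.5 and 11082.5 UMIs. Cells above 2 times the median UMIs of their library, among which doublets would be sought, were 15 of 97 DBZ members (15.5%), 4 of 12 DMSO members (33.3%), and 9.94% and 9.68% of other cells. Mitochondrial transcripts took a median of 3.11% of the UMIs of DBZ members and 4.84% of those of other cells. The part of depth in the results was not tested. The 2 libraries had 3 cell barcodes in common, and none belonged to a member. The labels speak of 3000 cells per sample.

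The selection fixed the levels of Defa24 and Defa22, which are given as a description. In DBZ members Defa24 ranged from 5.93 to 2716 per 10000 UMIs, with a median of 693, and in DMSO members from 175 to 2196, with a median of 632. Defa22 ranged from 0 to 630 in DBZ members, with a median of 28.8. The defensin sum ran from 203 to 4262 in DBZ, with a median of 1226, and from 228 to 4390 in DMSO, with a median of 1886. The lowest sums inside the limit were 203, 208 and 223, and the highest outside it 195, 192 and 187. The ratios of Defa24 to Defa22 nearest to 1 were 1.01, 1.09 and 1.17 inside and 0.995, 0.946 and 0.874 outside. 

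The label was checked against 5 marker genes, of which Ang4 and Spink4 were outside the rule, while Defa24, Defa17 and Defa3 were in its sum. All 5 had a UMI in 52 of 97 DBZ members and 9 of 12 DMSO members, 4 had one in 26 and 3, and 3 had one in 17 DBZ members. Defa24 was the highest of the Defa genes in 75 DBZ members and 9 DMSO members. Defa20 was highest in 18 and 3, while Defa17 and Defa21 were each highest in 2 DBZ members. Not every member carried much Defa24: in 4 DBZ members Defa24 was between 5.93 and 17.2, near the level in other DBZ cells (median 6.23, with a UMI in 1035 of 1036), and the next lowest member had 85.2. Those 4 cells had Defa20 at 150.3 to 340 and Chgb, a granin of enteroendocrine cells, at 3.01 to 18.4. Enteroendocrine cells were taken from the other cells of the DBZ library, with Chga and Chgb summing to at least 20. The 1 member and 7 Defa22-dominated cells that reached this sum were left out. These enteroendocrine cells had Defa24 at a mean of 7.24, with a UMI in 31 of 31. A UMI of Defa17 was found in 61.3% of them and of Spink4 in 51.6%. A single UMI of these 3 genes therefore does not mark a member, and the source of the low levels was not tested. In DMSO, other cells had a mean Defa24 of 1.18.

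**Figure D1:**
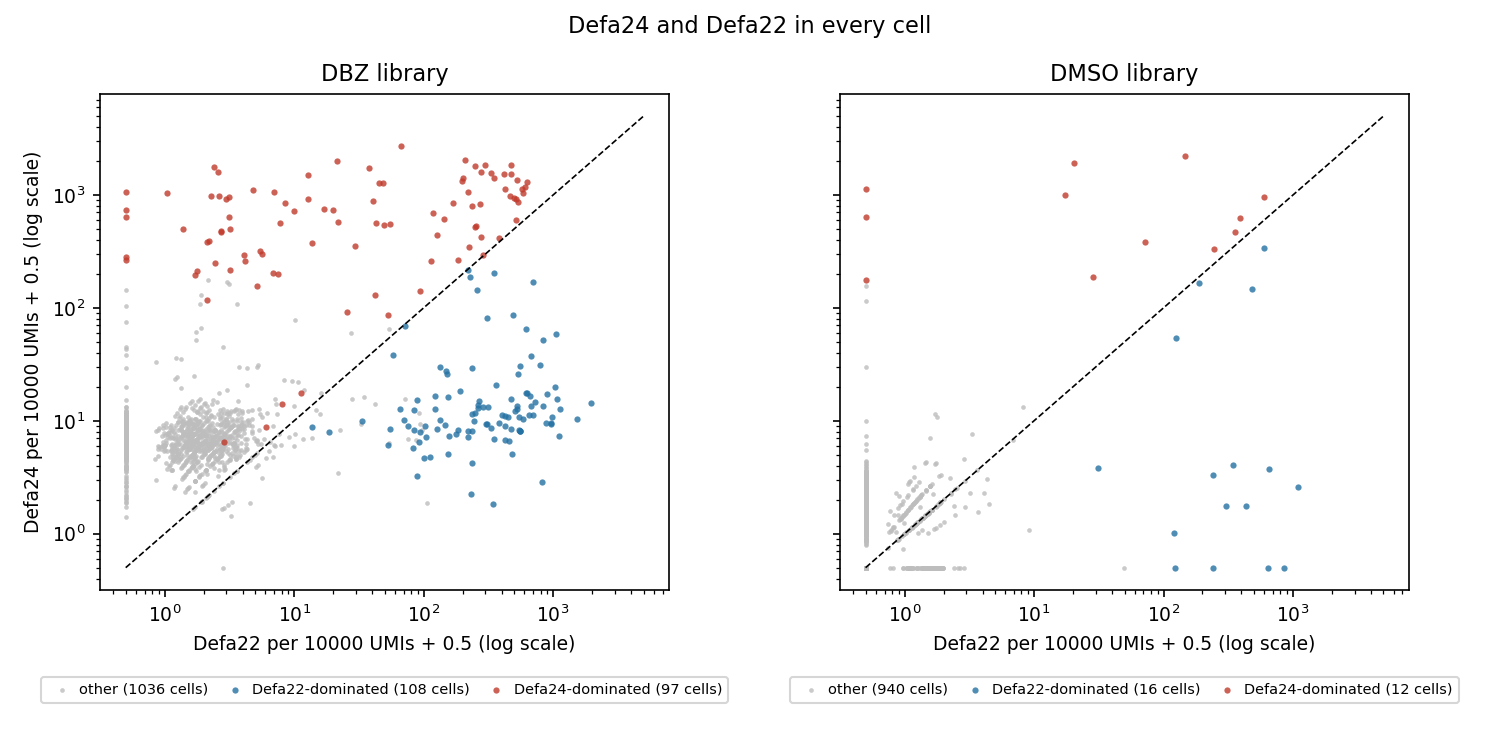
Defa24 (vertical) against Defa22 (horizontal) in every cell, per 10000 UMIs plus 0.5 on log axes, with 1 panel per library and 1 point per cell. Members lie on or above the diagonal that chose them, and the 42 DBZ members with at least 32 times more Defa24 than Defa22 form the upper left group.

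Members differed widely in which defensins they carried. The share of Defa24 in the defensin sum had a median of 51.0% in DBZ members, within a range of 2.33 to 97.3%, and of 55.5% in DMSO members, within 13.2 to 99.0%. It was at least 50% in 51 of 97 and 7 of 12 members. Defa24 was at least 2 times Defa22 in 80 DBZ members and 8 DMSO members, and Defa22 was not seen in 5 and 3. Where Defa24 led in DBZ, the second gene was Defa20 in 37 cells and Defa17 in 31 of 75. Members in which Defa17 came second and members in which Defa20 did thus occurred in similar numbers. The shares and this ranking cover only the 10 genes named Defa plus digits. Alpha-defensins under other symbols were left out, though some were as high. In DBZ members Gm15308 had a mean of 210 and Gm15284 of 167, against 195 for Defa17.

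**Figure D2:**
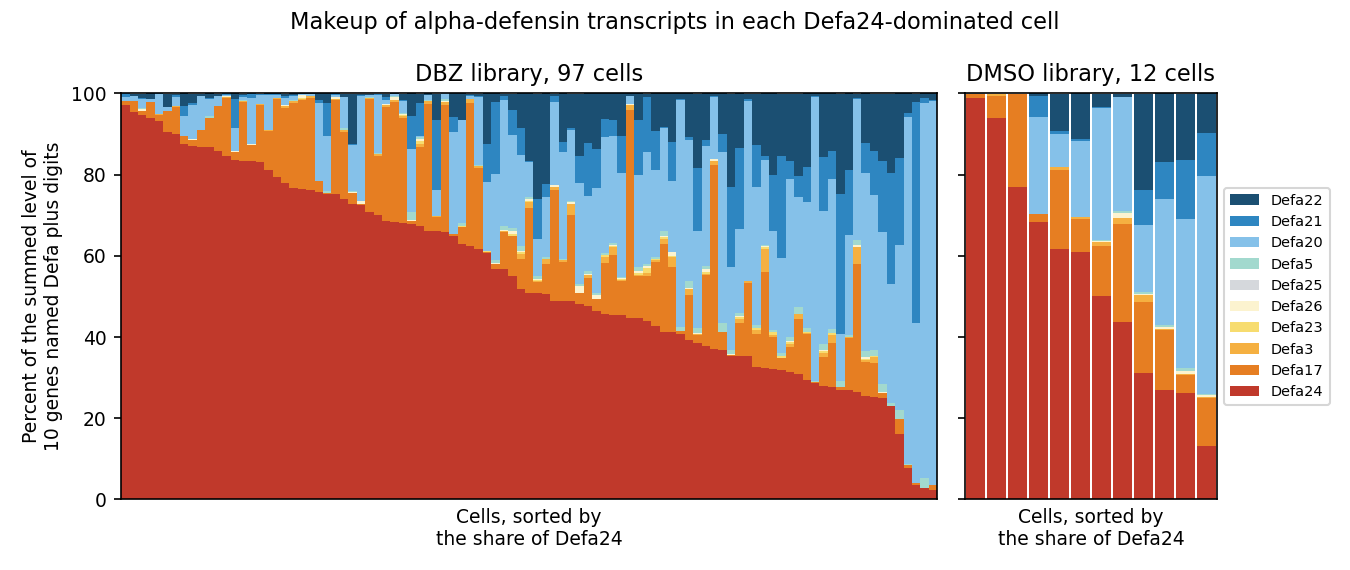
Share of each of 10 Defa genes in the summed level of a member cell, in percent, with 1 bar per cell sorted by the share of Defa24. Defa24 runs from 97.3% to 2.33% over the 97 DBZ members and from 99.0% to 13.2% over the 12 DMSO members, and Defa17 or Defa20 takes most of the rest.

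Most other defensin genes near to Defa24 in coding sequence were higher in members, and those near to Defa22 were lower or alike. These genes entered the rule through the sum, so their levels are descriptions. Differences are log2 ratios of mean levels with 0.05 per 10000 added, which understates the change of low genes. Defa17 had 195 per 10000 UMIs in DBZ members against 3.71 in Defa22-dominated cells (log2 difference 5.70), and 202 against 27.5 in DMSO, where the latter was 1.48 without its highest cell. Defa3 had 12.4 against 0.20 in DBZ and 11.1 against 0.49 in DMSO. Gm15284, which RefSeq names Defa30, had 167 against 4.95 in DBZ (5.06). On the other side, Defa21 had 113 against 322 in DBZ (-1.52) and 108 against 314 in DMSO. Defa20 did not separate the classes. It was at 361 and 459 in DBZ (-0.35) but at 544 and 407 in DMSO (0.42), and pooled UMIs gave 0.06 in DBZ. Defa25 (-1.53), seen at 0.01 against 0.14, was low beside its relatives. Leaving out Defa24 and Defa22, 10 genes that passed the filter were nearer to Defa24 in coding sequence, of which 8 were at least 2-fold higher in members and 2, Defa25 and Gm10104 (-1.21), at least 2-fold lower. The 4 genes nearer to Defa22 were all lower, 2 of them by at least 2-fold.

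Near-identical copies limit what a level of 1 gene means. Of the 91-base windows of the Defa24 transcript, the length of the second read, 0 of 329 also occurred in another gene's transcript. For Gm15284 it was 3.90%, for Defa22 44.7%, for Defa17 90.9% and for Defa3 87.2%. For Defa20 it was 99.7%. Reads of Defa17 and Defa3, or of Defa20 and Gm15308, may therefore have been split between copies or lost. The annotation counted by the authors may differ from the one searched.

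**Figure D3:**
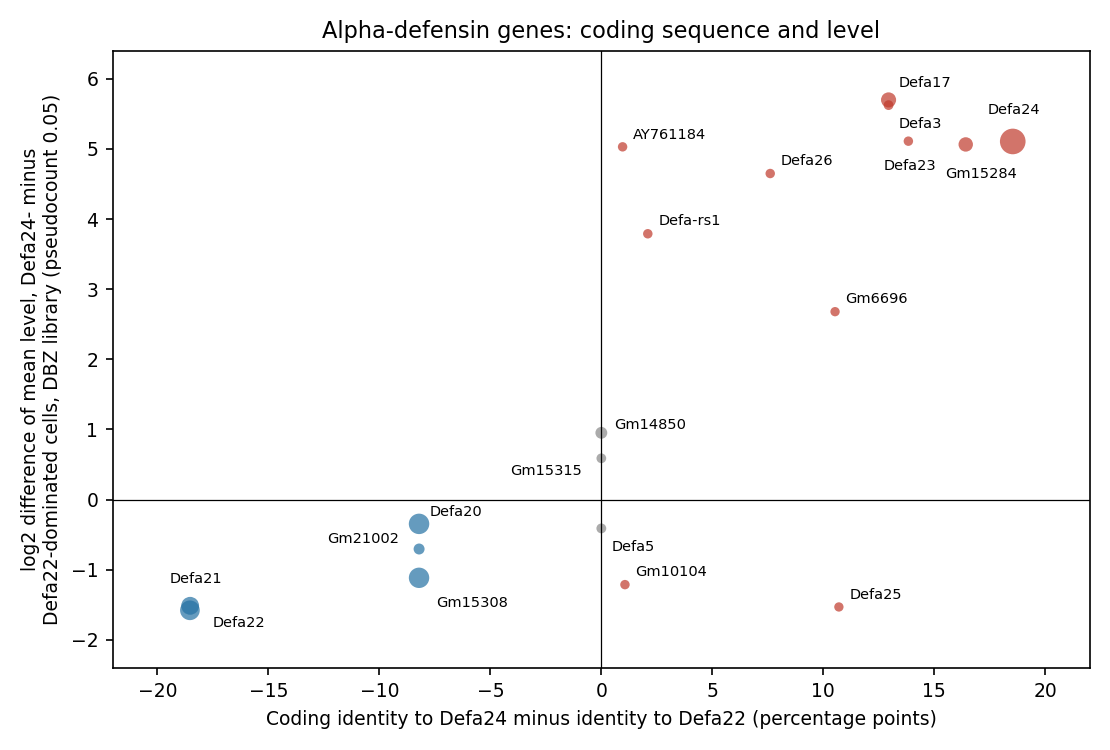
Log2 difference of mean level between members and Defa22-dominated cells of the DBZ library (vertical) against coding identity to Defa24 minus identity to Defa22 in percentage points (horizontal), with 1 point per alpha-defensin gene, sized by the higher of its 2 mean levels, and with Defa24 and Defa22 included although they chose the cells. Defa17 (5.70) and Gm15284 (5.06) stand at the upper right, and Defa21 (-1.52) at the lower left.

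Several Paneth and goblet cell products outside the defensins, Tff3, Mmp7 and Ang4 among them, were higher in members than in Defa22-dominated cells. Tff3, a goblet cell trefoil peptide, ranged from 0 to 539 per 10000 UMIs in DBZ members, with a median of 80.7, and from 0 to 69.2 in DBZ Defa22-dominated cells, with a median of 1.28. In DBZ, 52 of 97 members lay above the highest Defa22-dominated cell. The log2 difference was 5.27, and pooled UMIs gave 5.25 (5.12 to 5.39). In DMSO the Tff3 medians were 108 and 0, and 6 of 12 members lay above the highest of the 16 cells. Mmp7, the protease that activates alpha-defensins in the mouse, had a median of 12.6 and a highest value of 90.2 in DBZ members, against 0.945 and 8.93. It exceeded all Defa22-dominated cells in 56 DBZ members and 10 DMSO members. Other DBZ cells had a mean Mmp7 of 2.03, so the members stood above both groups.

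Ang4, an antimicrobial ribonuclease of Paneth cells, had a log2 difference of 5.74 in DBZ, on means of 24.4 and 0.41. Its median was only 1.78 in DBZ members, its highest value 334, and 36 members lay above the highest Defa22-dominated cell at 11.1. A UMI of Ang4 was found in 66.0% of DBZ members, at a median depth of 13237 UMIs, and in 16.1% of the DBZ enteroendocrine cells at 7328. Thinned to the same depth the shares were 54.6% and 12.9%. Spink4, a secreted protease inhibitor of goblet and Paneth cells, ranged from 0 to 713 in DBZ members, with a median of 14.8, and the classes overlapped, since Defa22-dominated cells reached 577 around a median of 0. Above that cell lay 2 DBZ members, and above the median 91. Without that cell the mean Spink4 of its class was 2.83 instead of 8.15. Itln1, a lectin that binds bacterial sugars, had medians of 16.9 and 2.36, with no DBZ member above the highest Defa22-dominated cell at 782. Clps, the cofactor of pancreatic lipase, had means of 7.51 and 0.62 in DBZ and 32.3 and 1.93 in DMSO.

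**Figure D4:**
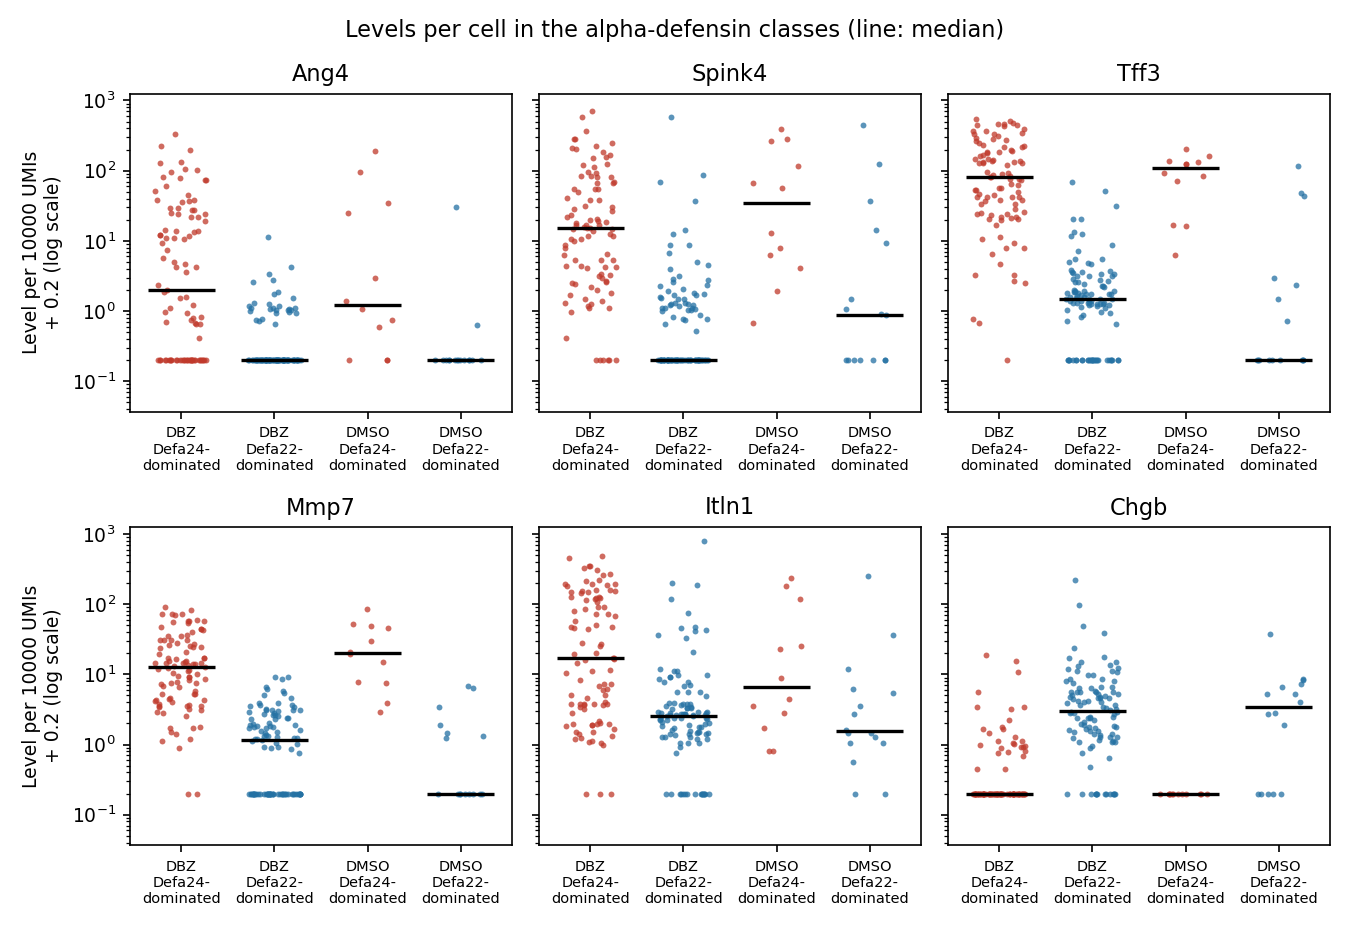
Levels of 6 genes per 10000 UMIs plus 0.2 (log axis) in each defensin cell, by library and class, with 1 point per cell and a line at the median. Tff3 has medians of 80.7 and 1.28 in the DBZ classes and Mmp7 12.6 and 0.945, while Chgb, a granin, is higher in Defa22-dominated cells.

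Over all genes, 264 of 8853 that passed the filter in DBZ (2.98%) were at least 2-fold higher in members than in Defa22-dominated cells and 739 (8.35%) at least 2-fold lower. The median over all genes was -0.25, and 6144 of the 8853 were lower in members by any amount, a background for the list counts that follow. In DMSO, with 12 and 16 cells, the shares of 9110 genes were 10.8% and 27.5%, around a median of -0.39. Among Paneth products other than defensins, 15 of 20 were higher in DBZ members, 12 of them by at least 2-fold, with a list median of 2.01. Besides those above, Guca2a (5.49), the precursor of guanylin, which acts on epithelial fluid secretion, and its relative Guca2b (3.88) stood out, as did Nupr1 (4.43), a stress-response regulator. Reg3b (3.34) and Reg3g (3.44), bactericidal lectins, were higher in DBZ but at 0.33 and -0.50 in DMSO. Reg4 was lower (-0.87), at 2.27 against 4.18, but the latter mean was 1.84 without its highest cell. Of 12 goblet products 8 were higher, all by at least 2-fold, and 4 were lower, with a median of 2.19. Agr2 (4.57), a disulfide isomerase needed for mucin making, and Fcgbp (4.29), a mucus protein, were among the higher ones. The goblet mucin Muc2 was scarce, with 11 UMIs in DBZ members, 1 in DBZ Defa22-dominated cells and 0 in DMSO members. Rnase1 (4.57), a secreted ribonuclease, and Slc12a2 (2.34), a chloride cotransporter, were also higher. The most expressed Gm genes past 2-fold were Gm15308 (-1.12), Gm15284 (5.06) and Gm7861 (3.20).

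Genes of the enteroendocrine lineage, whose cells make hormones, were lower in members than in Defa22-dominated cells. In DBZ, 18 of 20 were lower, 15 by at least 2-fold, with a median of -1.48, and in DMSO 17 of 19 were lower, 15 by at least 2-fold, with a median of -3.15. Chgb had means of 0.80 and 7.79 in DBZ (-3.20), and in DMSO it had 0 UMIs in members against 96 in the other class. Pcsk1n (-3.28), an inhibitor of prohormone convertase, Sct (-2.49), the precursor of secretin, Cpe (-2.12), a prohormone-trimming enzyme, and Fev (-2.96), an endocrine transcription factor, followed the same order. The 2 enteroendocrine genes higher in DBZ members were hormones, Ghrl (3.46) and Nts (1.95), and in members 75.6% of the Ghrl came from 1 cell. Chga and Chgb were both at 0 in 57 of 97 DBZ members and 12 of 12 DMSO members, against 8 of 108 and 5 of 16 Defa22-dominated cells. Among other cells both were at 0 in 738 of 1036 in DBZ and 872 of 940 in DMSO. Shh (-3.45), a hedgehog ligand, was also lower in DBZ members than in Defa22-dominated cells, on means of 0.04 and 0.92. Epha5 (-3.37), Sez6l2 (-3.19) and Cd83 (-2.96) came near it.

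The smaller DMSO set was compared gene by gene. Of the 15 highest and 15 lowest named genes of DBZ, 14 at each end were at least 2-fold different the same way in DMSO. The exceptions, Defa23 and Synpr, were at 0 in both DMSO classes. Several of the lowest rest on few UMIs there. DMSO members and Defa22-dominated cells had 0 and 3 UMIs of Gria2 and of Tspyl4, and 2 and 4 of Cd83. Their pooled intervals reached 1.10, 1.10 and 1.63, so the direction of these genes in DMSO is not settled. Cryba2, Sez6l2, Cadps and Shh had 0 against 8 to 10 UMIs, while Pcsk1n had 0 against 124 and Chgb 0 against 96. The 15 highest hold genes named Defa plus digits, whose levels the rule used in both libraries, and of the 10 others 10 were at least 2-fold higher in DMSO. Of all genes at least 2-fold higher in DBZ, 127 were so in DMSO, which is 48.1% of the DBZ genes and 12.9% of the DMSO genes. For lower genes it was 385, or 52.1% and 15.4%. Among genes passing in both, 8.95% and 26.4% were past 2-fold in DMSO in those directions.

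Secretory fate factors divided between the classes, with 8 of 17 higher and a median of -0.03. Atoh1 (1.37), the switch to secretory fates, Gfi1 (1.09), its target that holds back endocrine fate, Spdef (0.82), which matures goblet and Paneth cells, and Bhlha15 (0.78), which scales the secretory apparatus, were higher in DBZ members. All were low: Atoh1 was at 0.23 against 0.06 per 10000 UMIs and was seen in 19 of 97 members. Atoh1, Gfi1 and Spdef are listed at 0 in every DMSO cell. Endocrine factors were lower, with Neurod1 at -1.48, Neurog3 at -1.26, Nkx2-2 at -1.14 and Insm1 at -1.03. Neurog3, the switch to endocrine fate, took the opposite sign in DMSO, where 19 UMIs in members came from 2 cells and the 16 Defa22-dominated cells had none. Foxa1 (0.64), Hes6 (0.32), Creb3l1 (1.39) and Sox4 (0.01) were higher and Foxa2 (-0.74), Xbp1 (-0.54), Sox9 (-0.44), Foxa3 (-0.29) and Klf4 (-0.03) lower. The 4 Notch targets that passed lay within 2-fold of Defa22-dominated cells, with Lfng at 0.81, Bcl2l1 at 0.73, Hes1 at 0.63 and Dtx4 at 0.27. For Hes1 pooled UMIs gave -0.03 (-0.57 to 0.52), from 64 and 56 UMIs, so its sign depends on how cells are weighted.

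Among niche signals, Areg (2.82), a ligand of the EGF receptor, was higher in members, and Wnt3 (-0.78), which Paneth cells supply to stem cells, lower. Wnt targets and crypt-base genes were 12 of 24 higher, with a median of 0.02. Cd44 (1.24) and Sp5 (1.25) were higher, and Wif1 (-1.84), a secreted Wnt inhibitor, Prox1 (-0.87), a Wnt-driven transcription factor, and Lef1 (-0.97) lower. Stem cell genes had a median of 0.24, with Lgr5 at -0.36 and Smoc2 at 1.37. Genes of protein folding and export from the endoplasmic reticulum were 19 of 35 higher with a median of 0.02, and Ero1l (1.80), which makes disulfide bonds, was the 1 past 2-fold. Hspa5, the main chaperone there, was at 4.07 and 3.70. Golgi and granule traffic genes had a median of -0.07 and a summed level of 14.2 against 23.8, a list that includes Chga and Chgb. Zinc handling genes had a median of 0.01. Of 22 mitosis genes 10 passed, and these were higher, 5 of them by at least 2-fold, with a median of 0.92. Levels were low, as in Top2a (0.50 and 0.20). Pooled UMIs gave 0.59 (-0.06 to 1.26) for Ube2c and 0.63 (-0.56 to 1.91) for Ccnb2, with 0 inside both intervals. DNA replication genes were 15 of 16 higher (0.67). Genes passed on detection in either class and members were deeper, so low genes of both lists could enter through members. The part of this in the counts was not tested. In DMSO the mitosis median was 0.35. Cholesterol synthesis genes were 14 of 18 lower (-0.42), near the share over all genes. Of tuft genes 2 passed, Cd24a (0.95), also a Paneth surface marker, and Kctd12 (-1.56). Immune markers were not in the table and Vim was the 1 fibroblast marker there.

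**Figure D5:**
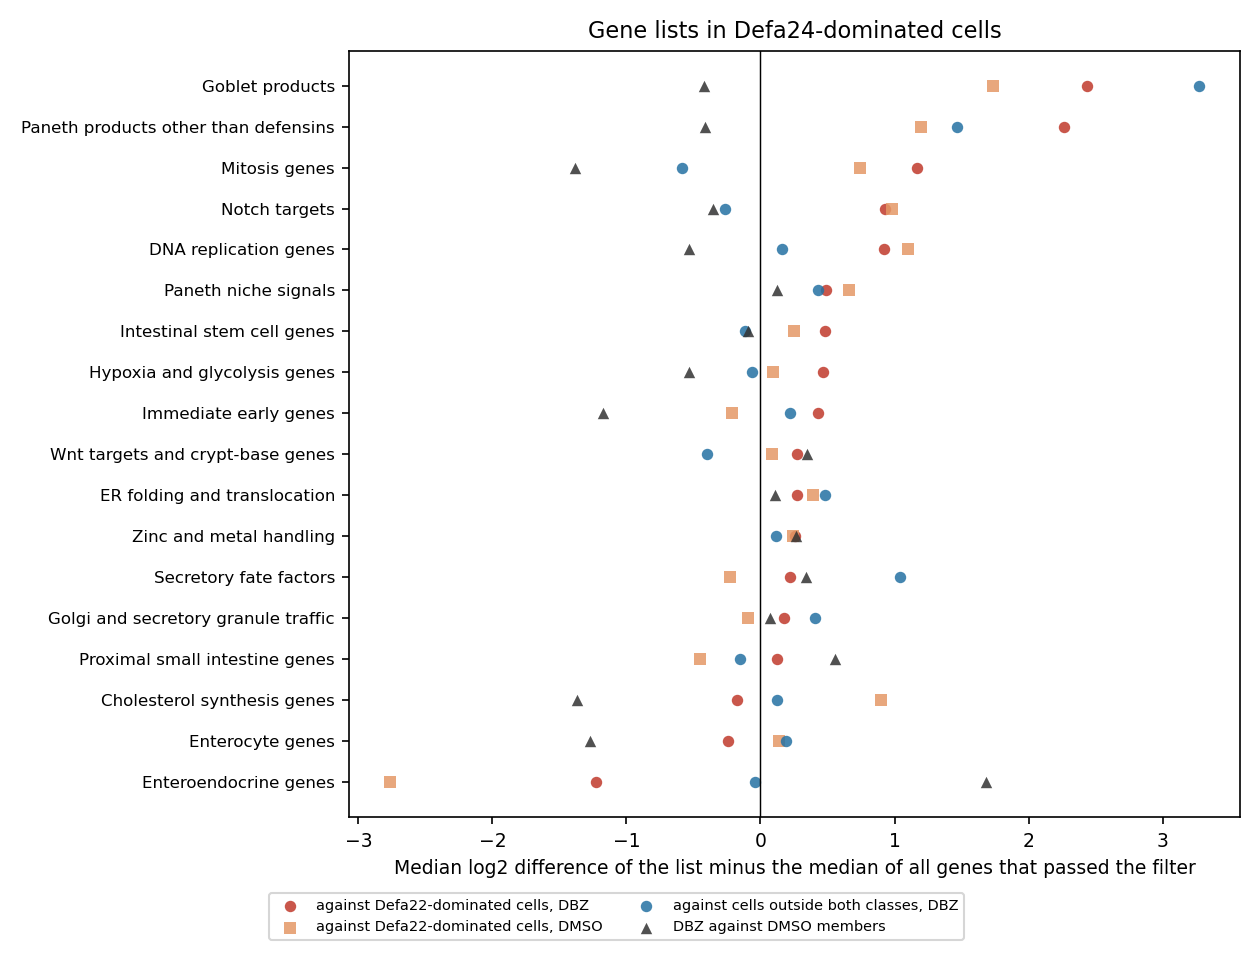
Median log2 difference of each gene list minus the median of all genes that passed, for the contrasts of members with Defa22-dominated cells of DBZ (red circles) and of DMSO (orange squares), with other DBZ cells (blue circles) and of DBZ with DMSO members (black triangles). Goblet and Paneth products stand to the right and enteroendocrine genes to the left in the comparison with DBZ Defa22-dominated cells, whose list medians were 2.19, 2.01 and -1.48 before subtracting -0.25.

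Against the other cells, members held 1.38% of 8818 genes at least 2-fold higher (122) and 5.36% at least 2-fold lower (473) in DBZ, around a median of -0.39, and 7517 of the 8818 were lower by any amount. In DMSO the shares were 2.54% and 24.2%, around -0.51. Defensins took a median of 13.1% of the UMIs of DBZ members (2.29 to 63.7%) and 24.4% of those of DMSO members, which lowers the level of every other gene. Genes higher in members were 20.5% of those past 2-fold in DBZ. With the Defa genes left out of the totals the share was 38.9%, and with every alpha-defensin left out it was 50.4%. Outside the defensins, Spink4 (6.33), Ang4 (6.31), Tff3 (5.13) and Clps (5.56) were far above other DBZ cells. Wnt3 (1.85) was higher here, as were Atoh1 (2.03), Bhlha15 (1.78), Spdef (1.72), Gfi1 (1.47), Nkx2-2 (1.34), Neurog3 (1.11), Neurod1 (1.09) and Insm1 (0.95). Of enteroendocrine genes 10 of 15 were lower in DBZ, with a median of -0.43, near that over all genes. In DMSO 2 of 4 were lower, with a median of 0.23. Mitosis genes were lower in 20 of 20 in DBZ (-0.98). Wnt targets were lower in 22 of 24 in DBZ (-0.79), a count near that over all genes. Among them was Notum (-2.10), an extracellular Wnt deacylase, at 3.90 against 16.9. Prox1 was at 4.03 against 10.1 (-1.32) and Hes1 at 0.473 against 0.945 (-0.93). Gip (-4.34), a hormone, was low, but in other DBZ cells its mean of 3.58 was 0.30 without 1 cell at 3407, and in members it was 0.13. Npy (-2.56), H19 (-2.43), Spock2 (-2.18) and Vim (-1.94) were low as well.

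Members varied with the ratio of Defa24 to Defa22 in some genes and not in others. They were split at 4 and 32 times, bounds chosen after values were seen, into 33, 22 and 42 DBZ cells. From the lowest to the highest ratio, the median of Tff3 was 36.3, 85.9 and 148 and its mean 73.2, 161 and 174. Mean Defa20 took the opposite order, with 599, 470 and 117, while its medians were 340, 474 and 18.0. Mean Gm15284 fell likewise, with 285, 220 and 46.6, and its medians were 159, 180 and 9.21. Mmp7 had medians of 9.22, 13.3 and 13.5. Ang4 had means of 21.7, 22.6 and 27.4 but medians of 4.73, 6.36 and 1.17, and Itln1 had means of 76.9, 89.0 and 67.0, so neither had a clear order. Chgb had means of 1.75, 0.50 and 0.22 but a median of 0 in each group, with a UMI in 12 of 33, 10 of 22 and 6 of 42 cells. The 4 DBZ members with Defa24 between 5.93 and 17.2, whose Chgb was 3.01 to 18.4, were all in the lowest group. In DMSO, on 4, 3 and 5 cells, mean Tff3 was 75.9, 51.6 and 142, with no order. In DBZ mean Defa17, with 167, 256 and 186, had no order, and mean total UMIs were 17379, 15267 and 14173. In DMSO mean Defa17 fell, with 266, 220 and 139, and mean total UMIs were 21920, 24628 and 15607. Across the 97 DBZ members, which share 1 library and its free RNA, Spearman's rho was 0.71 between Defa24 and Defa17, 0.91 between Defa17 and Defa3, 0.81 between Defa22 and Defa21 and 0.79 between Defa22 and Defa20. These pairs do not stand for all. Gm15284, at 98.6% coding identity to Defa24, had 0.72 with Defa22 and 0.58 with Defa24. Between Defa24 and Defa22 rho was 0.39, and between Defa24 and Defa20 it was 0.44. Tff3 had 0.70 with Mmp7, 0.61 with Spink4 and -0.22 with Defa22. Defa24 had -0.45 with Prox1. With total UMIs the values were 0.32 for Defa24, 0.16 for Tff3 and -0.35 for Prox1. These are descriptions across cells. Defa17 and Defa3, like Defa22 and Defa21, share 91-base windows and nearly all of their coding sequence. Defa22 and Defa20 were 90.6% identical in coding sequence, and their transcripts had no such window in common.

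Between the libraries, members were compared on 97 DBZ and 12 DMSO cells. Of 8723 genes, 16.3% were at least 2-fold higher in DBZ members and 4.78% lower, around a median of 0.24. The Defa levels were bounded by the rule. Their means in DBZ and DMSO members were 789 and 834 for Defa24, 195 and 202 for Defa17 and 361 and 544 for Defa20. Ang4 was at 24.4 and 29.2 (14.5 in DMSO without its highest cell), Tff3 at 137 and 97.4, and Spink4 at 59.3 and 101. Paneth products went both ways, with 4 of 21 at least 2-fold higher and 5 lower. Clps (-2.10), Guca2b (-2.12) and Guca2a (-1.33) were lower in DBZ members, though the Guca2a mean of DMSO members, 13.5, was 5.37 without its highest cell, and Reg3g (3.41) and Reg3b (2.91) higher. Defa23 had 768 UMIs in DBZ members and was listed at 0 in every DMSO cell. Atoh1, with 40 UMIs in DBZ members, is likewise listed at 0 there, so neither has a fold. Hes1 was at 0.473 and 1.15 (-1.20), with -1.80 for the same contrast in other cells.

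Mitosis genes were lower in 21 of 21 in DBZ members (-1.14, 14 by at least 2-fold), with Ccnb2 (-2.71) and Ube2c (-2.24) among them. The median was -0.34 in other cells and -1.93 in Defa22-dominated cells. Cholesterol synthesis genes were lower in 18 of 18 (-1.12, 12 by at least 2-fold), against -0.52 in other cells and -0.53 in Defa22-dominated cells. Lss (-2.14) and Idi1 (-1.98), enzymes of the pathway, were members of that list. Acat2 (-2.25), outside the list, was among the 10 lowest genes, with Fgfbp1 (-2.81), Arc (-2.62), Sfn (-2.29), Adm (-2.16) and Plaur (-2.14). In DMSO members 1 cell held 87.1% of the Sfn, 74.8% of the Adm, 72.9% of the Plaur and 63.9% of the Arc. Immediate early genes were lower in 14 of 14 (-0.93), against -1.20 in other cells. Enteroendocrine genes were higher in 12 of 15 (1.93), against 1.52 in other cells. Chga and Chgb had 66 and 93 UMIs in DBZ members and 0 in DMSO members, which is at least 3.50-fold and 4.94-fold higher against a floor of 3 UMIs over the DMSO members. Igfbp1 (4.42), a binding protein of insulin-like growth factors, and Cyp2c55 (3.53) were also higher, each on 1 UMI in DMSO members. Pooled UMIs gave 5.19 (2.70 to 10.5) for Igfbp1 and 4.33 (1.82 to 9.64) for Cyp2c55. Ghrl had 672 UMIs in DBZ members and 0 in DMSO members, and its mean of 7.54 was 1.86 without its highest cell. For Nts the means were 1.21 and 0.26 likewise. DMSO members were deeper and fewer, so differences between the libraries and differences between 12 cells and 97 cannot be told apart from the treatment here.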

How the data were processed

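Single-cell libraries of Apc-mutant organoids were analysed, 1 for DBZ and 1 for DMSO. Values are natural log values in 1 table deposited by the authors. The submitters' processing notes list mm10, Cell Ranger 2.1.1 and Seurat. How cells and genes were filtered, and with which annotation, is not given in the sources used here. Columns named CTRL were read as DMSO and GSI as DBZ. Each value was turned back by exp(value) - 1 to a level per 10000 UMIs. Of 7553435 values above 0, 100% were whole multiples of 1 step per cell within 0.01, which gives UMIs; no count model was run, since each group has 1 library. There are 0 columns without a sample. In the DMSO library 723 genes are at 0 in every cell and in the DBZ library 282, so such genes are written as listed at 0.

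Members and lists were chosen with earlier results of these data known. The log2 difference used a pseudocount of 0.05 on means over cells, for genes detected in 10% or more of either class. Called means 2-fold. Shares have exact 95% Clopper-Pearson intervals, and pooled UMIs an exact conditional interval. No doublet caller was run; cells over 2 times the median UMIs were left out as an alternative. Named genes are all genes named Defa plus digits, Ang4 and Spink4, the 2 to 4 strongest, the most expressed and the defining member of each list, all detected fate factors and Notch targets, and the 15 highest and 15 lowest genes (10 and 10 for the comparison with other cells and for DBZ against DMSO members) with 20 or more UMIs, without Xist, ribosomal protein, mitochondrial, Rik and Gm genes; the 3 most expressed Gm genes were added. Some genes that this selection names are not reported here. Reg3b, Reg3g, Slc12a2, Cd44, Sp5, Lef1, Smoc2 and Reg4 were chosen after their values were seen. The code was tested on simulated data: over 13373 genes with 200 changed, 100% of UMIs came back and 0.577% of 9007 unchanged genes passed 2-fold. The simulated cells had the depths of the 97 and 108 DBZ cells and came from a pooled profile, without variation between cells. That share is therefore not a rate of false calls for these data. Sequences are from GENCODE M21 and RefSeq, aligned with biopython 1.88. Python 3.11.15, numpy 2.4.6, pandas 2.3.3 and scipy 1.17.1 were used.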

Additional observations from a re-analysis of the deposited data

How the results depend on the processing

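With Defa24 required to be the highest Defa gene, members were 6.04% of DBZ cells, an alternative chosen after seeing the data. A pseudocount of 0.01 gave 406 genes higher and 1172 lower in members than in Defa22-dominated cells of DBZ, and 0.5 gave 51 and 61, since it shrinks low genes. Requiring a UMI in 25% of cells gave 128 and 383, with fewer genes tested. Against other DBZ cells, 0.01 gave 945 lower and 0.5 gave 47 higher and 31 lower. Leaving the Defa genes out of the totals gave 259 lower, and leaving out all alpha-defensins gave 208 higher and 205 lower. For DBZ against DMSO members, 0.01 gave 704 lower and 0.5 gave 50 higher and 31 lower. The share of higher genes among those past 2-fold moved with a pseudocount of 0.5 from 26.3% to 45.5% for the first comparison and from 77.3% to 61.7% for the last; against other DBZ cells it was 60.3%. Signs changed for 4 of 830 single-gene values, Hes1 against Defa22-dominated cells of DBZ (-0.02 with pooled UMIs) and Defa24, Defa22 and Defa17 between the libraries, and for 28 of 524 list medians, in each case on a main value below 2-fold. Of 524 list medians under the alternatives 456 stayed within the tolerance and 68 moved, and of 830 values of single genes 819 stayed on their side of 2-fold. Leaving out the highest cell moved 19 of 64 mean levels. No paired analysis was possible because each group has 1 library. The 12 DMSO members limit what depth can show there.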
